A study of Mus musculus with 3 samples.

Results

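The genes described are 9 genes of glycogen synthesis and breakdown, out of 21779 protein-coding genes, in a map of HIF1α binding in the embryonic mouse heart. They are Gys1, Gbe1, Pgm1, Pgm2, Ugp2, Ppp1r3b, Ppp1r3c, Pygl and Epm2a. The genes were chosen by the peaks found near them in these same data, so the presence, score and calls of their peaks are a description and were not tested. The map comes from chromatin immunoprecipitation and sequencing (ChIP-seq) of whole hearts from wild-type Black-Swiss mouse embryos at E12.5, so cell types within the heart are not resolved. There were 2 pulldown libraries made with an antibody against HIF1α and 1 library of input chromatin from hearts of the same strain, genotype and stage. The data analysed are a single peak list that merges the calls of both pulldowns, each made against that input. A peak list holds no expression values, so the tissue was not checked against its markers.

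The merged list holds 17289 peaks. Each has a whole-number score set by the authors, from 2 to 3315, and a name that ends in 1 or 2, read here as the number of merged calls. Of all peaks, 1989 (11.5%) carry 2 calls and 15300 carry 1. The file does not mark which pulldown gave a single call, and the sequencing depth is unknown, and no replicate error can be given for any value below. A peak was assigned to a gene when its centre lay inside the gene or within 50 kb of either end, in mm10 coordinates.

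Glycogen is a branched glucose polymer that cells store as a quick source of energy, and the fetal heart is rich in it. Phosphoglucomutase turns glucose 6-phosphate into glucose 1-phosphate, UDP-glucose pyrophosphorylase activates it, glycogen synthase lengthens the chains and the branching enzyme adds branch points. Glycogen phosphorylase releases glucose 1-phosphate from the chains. HIF1α, with its partner ARNT, binds the core sequences ACGTG and GCGTG in hypoxia response elements, and glycogen synthesis genes are known HIF targets in cultured cells.

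All 9 glycogen genes had at least 1 peak in the 50 kb window, which 64.8% of all protein-coding genes also met. All 9 had a peak of 2 calls there, against 21.4% of all protein-coding genes. Within 5 kb of either gene end, 9 of 9 had a peak and 8 of 9 had one of 2 calls, against 24.0% and 7.72% of all protein-coding genes. Within 1 kb of either end, 8 of 9 had a peak of 2 calls, against 5.54% of all protein-coding genes. A peak with a score of 10 or more lay within 5 kb of 5 of the 9 genes (Ppp1r3c, Gbe1, Pgm1, Gys1 and Pygl), against 0.831% of all protein-coding genes. These shares were part of the choice of the genes and are given for scale.

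The windows of the 9 genes held 27 peaks, 14 of 2 calls and 13 of 1 call. Of the 14, 9 lay within 1 kb of an end of their gene and had scores with a median of 13. The 5 farther away scored 2 to 6. The 13 peaks of 1 call scored 2 to 4 with a median of 3, and 11 of them lay more than 1 kb from an end of their gene. For 6 of the 27 peaks, the nearest protein-coding gene end belonged to a neighbour. The farthest peak outside a gene but within the window lay 49312 bp from Pgm1 (score 2, 1 call). The closest peak beyond the window lay 65435 bp from Gys1 (score 4, 1 call).

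**Figure D1:**
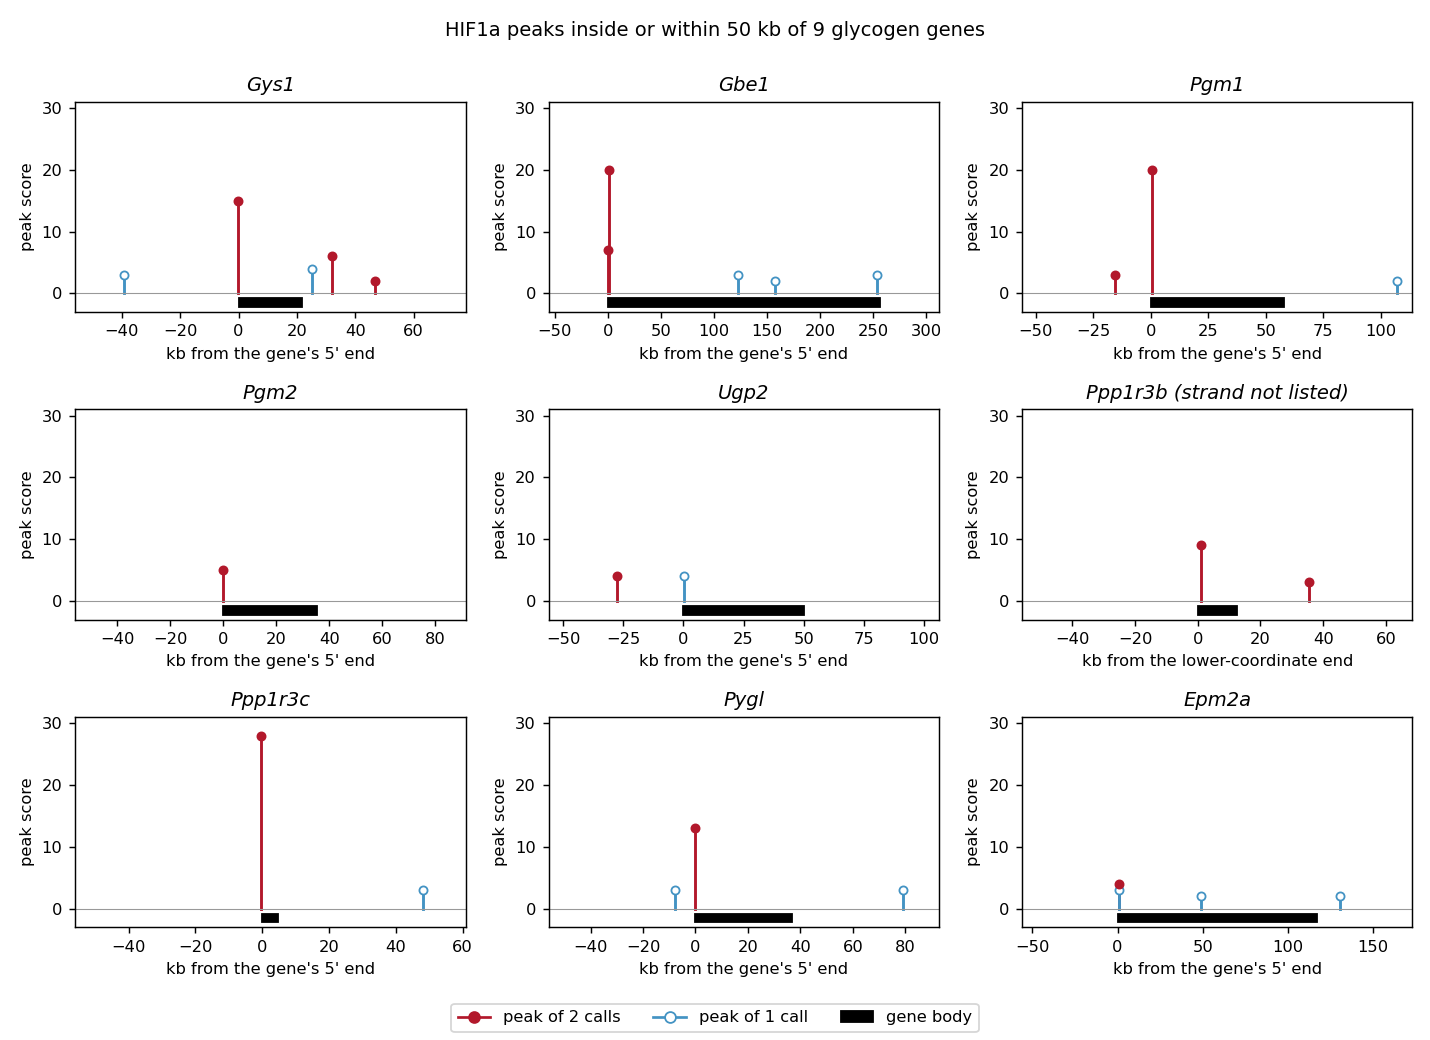
Peaks at each of the 9 genes, with position in kb from the 5′ end of the gene on the horizontal axis, or from the lower-coordinate end for Ppp1r3b, and the authors' peak score on the vertical axis. Filled red points are peaks of 2 calls, open blue points peaks of 1 call, and black bars the gene bodies. In 8 of the 9 panels a peak of 2 calls stands within 1 kb of the left end of the gene, from a score of 4 at Epm2a to 28 at Ppp1r3c, whereas at Ugp2 the peak there has 1 call.

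Sequence under the main peaks was read from RefSeq promoter windows of assembly GRCm38.p6, the build also called mm10. Each window covers 250 bases before to 50 after a transcription start. Windows existed for 8 of the 9 genes (not Ppp1r3b), and windows of neighbouring genes covered further bases. Of the 9 peaks of 2 calls within 1 kb of a gene end, 4 were covered whole, at Gys1, Pgm2, Pygl and Epm2a. Each of these held ACGTG or GCGTG on either strand. For scale, 66.9% of all 450 peaks of 2 calls lying wholly in a promoter window held a match. Among the 50 of those that scored 10 or more it was 84.0%. A further peak, at Pgm1, was covered over 60 of its 116 bases and held 2 matches. The covered parts of the peaks at Ppp1r3c (31 of 123 bases) and Gbe1 (77 of 177 bases) held no whole match. The second Gbe1 peak and the Ppp1r3b peak had no sequence here.

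The following stretches show where the matches sit, since the motif took no part in choosing the genes. Capitals mark ACGTG or GCGTG, or their reverse complements CACGT and CACGC, and each stretch runs 5′ to 3′ on the strand of its gene.
Pygl, the whole peak, chr12:70227745-70227846, minus strand, bases −163 to −62 from the start: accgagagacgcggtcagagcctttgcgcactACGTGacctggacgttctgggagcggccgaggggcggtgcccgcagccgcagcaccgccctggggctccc
Epm2a, the peak up to the base before the start, chr10:11343321-11343444, plus strand: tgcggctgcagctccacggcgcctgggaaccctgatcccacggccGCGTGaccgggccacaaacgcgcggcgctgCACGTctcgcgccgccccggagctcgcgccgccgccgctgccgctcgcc
Pgm2, the peak up to the base before the gene, chr5:64092843-64092918, plus strand: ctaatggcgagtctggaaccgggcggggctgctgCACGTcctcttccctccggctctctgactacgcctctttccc
Gys1, 30 bases of the peak, chr7:45434564-45434593, plus strand, read from the window of the neighbour Ruvbl2: ttgtagcaaccaCACGTcctccacgatccc
Pgm1, 30 bases of the peak, chr4:99929829-99929858, plus strand, read from the window of the noncoding gene BC062258: cgggctgaGCGTGtgctACGTGcgggcttc
Ppp1r3c, 30 bases across the edge of the peak, chr19:36736809-36736838, minus strand: ggccgccttccagCACGCtctggtcacatc
Ppp1r3c, 30 bases outside the peak, chr19:36736691-36736720, minus strand: gagggaccggttCACGTGatctggctttga

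The distances of the matches from the peak centres follow. The narrow width of the peaks already bounds them for any match inside, and no distance over the whole list is given beside them. The middle of the match was 12 bp from the centre at Gys1, 16 bp at Pgm2 and 17 bp at Pygl. At Epm2a the matches were 8 and 22 bp from the centre, and at Pgm1 they were 17 and 26 bp from it. At Ppp1r3c the nearest match straddled the edge of the peak, with 2 of its 5 bases inside, 62 bp from the centre. The second Ppp1r3c stretch holds CACGTG, a palindrome that counts as a match on each strand.

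Across whole promoter windows, 6 of the 8 genes with a window held at least 1 match, namely Pgm1, Pgm2, Ugp2, Ppp1r3c, Pygl and Epm2a, against 52.3% of protein-coding genes with a window. Counted per window rather than per gene, windows with a peak held a match more often. It was 81.9% of windows holding a 2-call centre and 73.6% of those holding 1-call centres alone. Of windows holding no peak centre it was 46.8%. The windows of Gys1 and Gbe1 held none. The Ugp2 window held 6 matches, which begin between bases −224 and −58 from the start, and none lay in its peak, which begins 21 bases after the start. Pgm1 had matches at −208 and −181 bases from its start, both outside its peak. A match in 300 bases is thus common, and these positions are letters found in a window, not measured binding sites.

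In the whole list the share of peaks with a match was higher for 2 calls than for 1. Among peaks that lie wholly in a promoter window, 66.9% of 450 peaks of 2 calls and 41.5% of 821 peaks of 1 call held a match. The peaks of 2 calls are also wider, with a median of 122 bp over the list. Among those of 2 calls with a score of 10 or more, which include the peaks of Gys1 and Pygl, it was 84.0% of 50. In bases −150 to −50 of all windows of protein-coding genes it was 23.1% of 21263. Windows holding the centre of a 2-call peak had a mean GC content of 63.1% and 25.7 CpG sites, and windows holding 1-call centres alone had 62.8% and 25.0 CpG sites. Windows holding no peak centre had 55.6% and 14.5 CpG sites. Mean base composition thus differed between windows with and without a peak, and was close between windows with 2 calls and 1 call. These are means over windows, not over the peaks compared above. The part of base composition in the differences between the shares was not tested. No test was run on the shares, since overlapping windows and peaks are not independent.

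**Figure D2:**
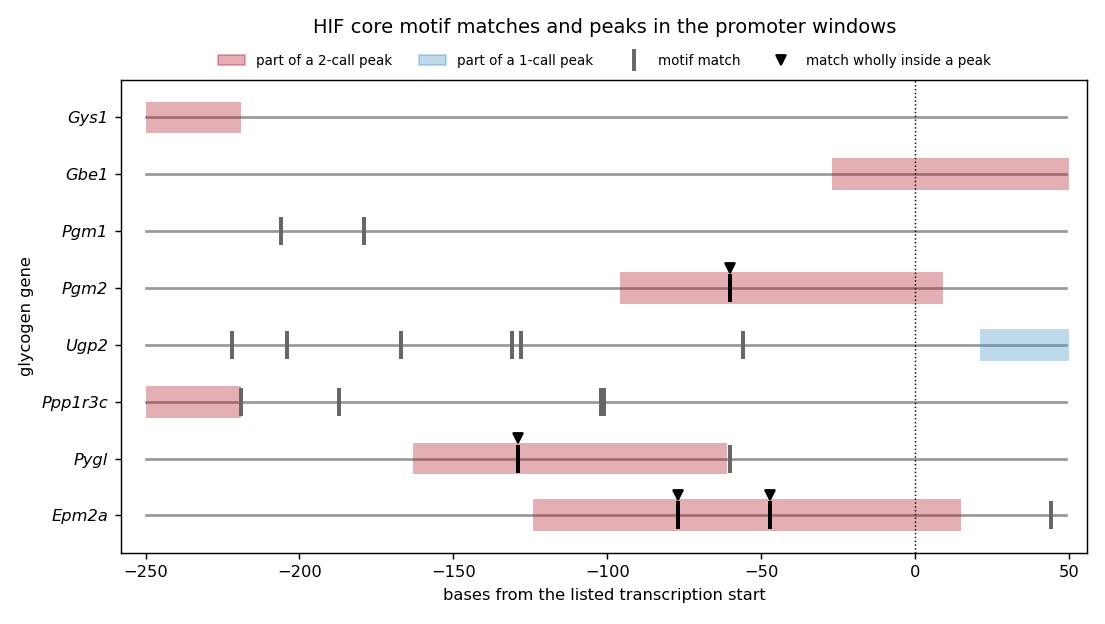
Promoter windows of the 8 genes, from 250 bases before to 50 after the listed transcription start (dotted line), with the parts of peaks that fall in the window (red for 2 calls, blue for 1 call) and matches of ACGTG or GCGTG on either strand (vertical ticks). Triangles mark matches wholly inside a peak, at Pgm2, Pygl and Epm2a. For Ugp2 the start listed farthest upstream is drawn, and the Gys1 and Pgm1 matches printed above lie outside these windows.

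Among the enzymes that build the polymer, Gys1 and Gbe1 carried peaks of 2 calls at their 5′ ends. Gys1 encodes the glycogen synthase of muscle and most other tissues (chr7:45434839-45456617, plus strand). Its main peak, chr7:45434513-45434619, had a score of 15, which 90 of the 17289 peaks exceeded. The peak centre lay 273 bp before the Gys1 start. It also lay inside the annotated span of the neighbour Ruvbl2, which encodes an ATPase of chromatin remodelling complexes and runs the other way, 102 bp before its listed start. Which of the 2 genes the peak belongs to cannot be told apart from position. The other 4 peaks in the Gys1 window were each nearest to a neighbour. The peaks of 2 calls scored 6 at Bax and 2 near Tulp2. The peaks of 1 call scored 4 at the ferritin gene Ftl1 and 3 at Snrnp70.

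Gbe1, the branching enzyme gene (chr16:70313949-70569720, plus strand), had 5 peaks, all inside the gene. A peak of 2 calls that scored 7 (chr16:70313922-70314098) was centred 61 bp after the start, and another that scored 20 (chr16:70314392-70314498) was centred 496 bp after it. The higher score was exceeded by 59 peaks in the list. The remaining peaks had 1 call each and scores of 2 and 3. They lay deep in the gene, 98127 and 122666 bp from the nearest end, or 2000 bp from the 3′ end. Gbe1 was the one gene of the 9 with 2 peaks of 2 calls within 1 kb of an end.

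The genes that supply glucose 1-phosphate and UDP-glucose differed in score. Pgm1 encodes the main phosphoglucomutase (chr4:99929451-99987294, plus strand). This symbol and Pgm2 were exchanged in older mouse nomenclature, and the gene table lists each as a synonym of the other. The main Pgm1 peak, chr4:99929808-99929923, had 2 calls and a score of 20, which 59 peaks exceeded. Its centre lay inside the gene, 414 bp after the Pgm1 start, and 47 bp after the listed start of the noncoding gene BC062258 on the same strand. A second peak of 2 calls, which scored 3, lay 15379 bp before Pgm1 and was nearest to Efcab7. The third peak had a score of 2 and 1 call.

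Pgm2, whose human counterpart acts mainly on pentose phosphates (chr5:64092919-64128355, plus strand), had a single peak in its whole window. It spans chr5:64092843-64092947, has 2 calls and a score of 5, and was centred 44 bp before the listed start. There were 706 peaks with a higher score. Ugp2, the UDP-glucose pyrophosphorylase gene (chr11:21321126-21371267, minus strand), was the exception among the 9. Its peak at the 5′ end, chr11:21371146-21371246, had 1 call and a score of 4 and was centred 71 bp after the start. Its peak of 2 calls, chr11:21398677-21398789, also scored 4 but lay 27466 bp before the gene, where no end of another protein-coding gene was nearer. A score of 4 was exceeded by 1294 peaks.

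Of the regulatory subunits that bring protein phosphatase 1 to glycogen, where it activates glycogen synthase, Ppp1r3c had the highest score of the 9 genes. At Ppp1r3c, which encodes the subunit also called PTG (chr19:36731731-36736604, minus strand), a peak of 2 calls at chr19:36736824-36736946 scored 28. There were 50 peaks with a higher score. Its centre lay 281 bp before the start, and no other gene start of the promoter table was nearer. The other peak of Ppp1r3c had 1 call and a score of 3, 43351 bp from the gene. At Ppp1r3b, which encodes the subunit named for liver and also called GL (chr8:35375694-35388139), a peak of 2 calls at chr8:35376585-35376692 scored 9. It lay inside the gene, 944 bp from the end with the lower coordinate, and 207 peaks scored higher. A second peak of 2 calls, which scored 3, lay 23109 bp outside Ppp1r3b, inside the noncoding genes Gm34911 and Gm51567.

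On the breakdown side, Pygl encodes the phosphorylase named for liver, which releases glucose 1-phosphate from glycogen (chr12:70190815-70227683, minus strand). Its main peak had 2 calls and a score of 13, which 116 peaks exceeded. The peak was centred 112 bp before the Pygl start and 46 bp from the start of the noncoding gene F730035M05Rik, which runs the other way. Peaks of 1 call lay 7664 and 42462 bp from the gene, each scoring 3, the farther one nearest to Abhd12b. The 7 genes counted on the synthesis side, all but Pygl and Epm2a, had highest scores from 4 to 28 with a median of 15. That of Pygl lies within their range. The 7 include Pgm2, although its human counterpart acts mainly on pentose phosphates. The 7 are counted by their part in synthesis, and any part of theirs in breakdown was not considered. With 1 gene counted as breakdown among the 9, the sides were not compared further.

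Epm2a encodes laforin, a phosphatase that acts on glycogen itself and whose loss causes Lafora disease in humans (chr10:11342691-11459664, plus strand). Its main peak, chr10:11343321-11343459, had 2 calls and a score of 4. The centre lay 699 bp inside the annotated gene but 55 bp before the listed transcription start, so the distance to the gene end understates how close it is to that start. A peak of 1 call, which scored 3, followed 245 bp after the start. The other peaks, each of 1 call and scoring 2, lay 49159 bp inside the gene and 13315 bp beyond it.

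Taking the peak with the highest score within 1 kb at each of the 8 genes with a listed start, the centre lay before the start at 5 (Gys1, Pgm2, Ppp1r3c, Pygl and Epm2a) and after it at 3 (Gbe1, Pgm1 and Ugp2). At 3 genes (Gys1, Pgm1 and Pygl) the start of another gene was nearer to that centre than the start of the member itself. No share over all protein-coding genes is given beside these counts, so they are a description only. A peak of 2 calls lay within 1 kb of a listed start at 7 of these 8 genes, against 5.72% of protein-coding genes in the promoter table.

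All peaks of 1 call share 1 width. If a peak of 2 calls joins 2 windows of that width, its own width gives the shift between them. The merging rule is not stated, so this reading was not checked. At the 9 peaks of 2 calls within 1 kb of a gene end the width ranged from 102 to 177 bp with a median of 108 bp, against a median of 122 bp over all 1989 peaks of 2 calls. These sets also differ in score, with medians of 13 and 4. On the reading above, the calls lay 1 bp apart at Pygl, 4 bp at Pgm2, 6 bp at Gys1 and at the higher Gbe1 peak, and 7 bp at Ppp1r3b. The shift would be 15 bp at Pgm1, 22 bp at Ppp1r3c and 38 bp at Epm2a, and 76 bp at the lower Gbe1 peak.

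**Figure D3:**
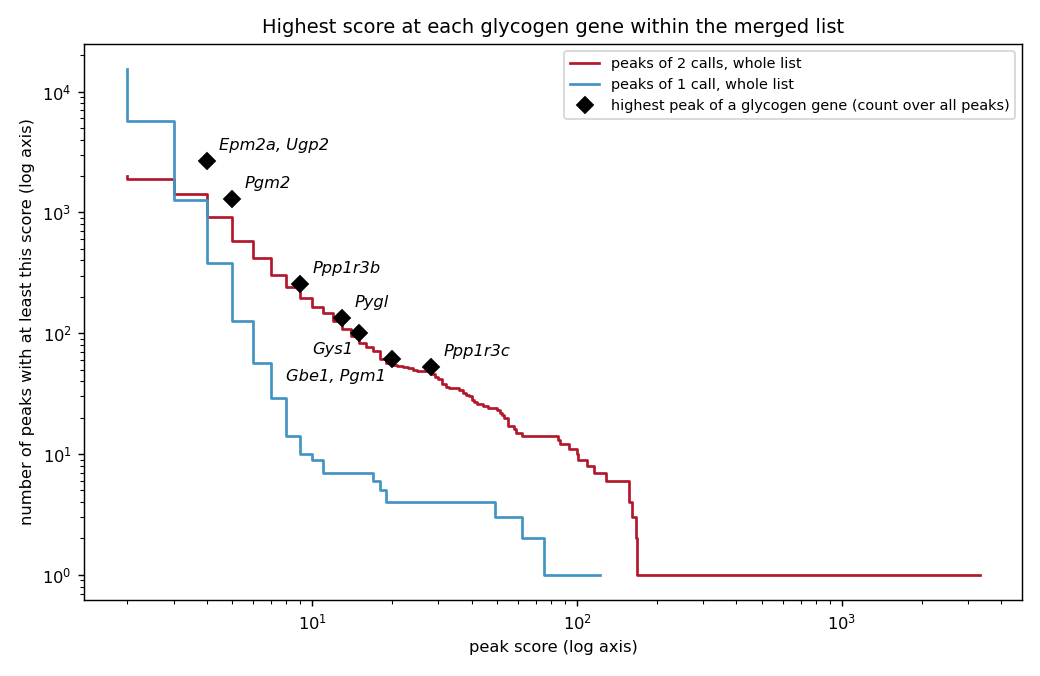
Number of peaks with at least a given score in the merged list, for peaks of 2 calls (red) and of 1 call (blue), both axes logarithmic. Diamonds place the highest peak of each of the 9 genes at its score and at the count over all peaks. The genes run from a score of 4 (Epm2a and Ugp2) to 28 (Ppp1r3c), and 5 of them lie among the 207 peaks that score 10 or more.

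The rest of the pathway was read from a list of 32 glycogen genes that contains these 9. Of the 23 others, 6 had a peak within 5 kb and 3 had one of 2 calls (26.1% and 13.0%, with 24.0% and 7.72% of all protein-coding genes as given above). The 3 were Ppp1r3g, Slc37a4 and Ppp1r3f. Within 50 kb, 17 of the 23 had a peak, against 64.8% of all protein-coding genes. The 6 without one were Gyg, which encodes the glycogenin primer, the liver synthase gene Gys2, Ppp1r3a, Ppp1r3d, Phka1 and Stbd1.

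Ppp1r3g, a further glycogen subunit of protein phosphatase 1, had a peak of 2 calls that scored 18 (chr13:35967842-35967942), above those of Gys1 and Pygl. It lies 2496 bp from the end of the annotated gene but is centred 14 bp before the listed start. The peak holds 1 match, which begins at base −38 from that start, in the following 30 bases on the plus strand with the match in capitals.
Ppp1r3g, chr13:35967856-35967885: gggaggaccttgACGTGctctagtgctagg
At Ppp1r3f, of the same family, the peak of 2 calls had a score of 2, the lowest in the list, at 211 bp from the gene end. The genes Ppp1r3a, Ppp1r3d and Ppp1r3e of this family had no peak within 5 kb. The synthase kinase genes Gsk3a and Gsk3b had none there either, as is the case for most protein-coding genes.

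Of the phosphorylase genes, those other than Pygl had peaks of 1 call within 5 kb, as 24.0% of all protein-coding genes have some peak there. At Pygb, named for brain, the higher of these scored 3 at 259 bp. It lay inside the neighbouring gene Gm30141, whose listed start was nearer, at 215 bp. Another at Pygb scored 2 at 3798 bp and was nearest to Abhd12. At Pygm, named for muscle, the peak scored 2 at 1176 bp and was nearest to Rasgrp2. The phosphorylase kinase genes Phka1, Phka2, Phkb, Phkg1 and Phkg2 and the lysosomal glucosidase gene Gaa had no peak within 5 kb.

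Of the genes that release free glucose, Slc37a4, the glucose 6-phosphate transporter gene, had a peak of 2 calls that scored 5, at 408 bp, inside the gene. G6pc3 had a peak of 1 call that scored 4, at 72 bp. This peak held ACGTG on both strands, in matches that begin at bases −99, −98, −79 and −78 from the listed start. Over the list, 41.5% of peaks of 1 call lying wholly in a promoter window held a match. G6pc, the phosphatase gene of liver and kidney, had no peak within 5 kb. Among the genes of glycogen quality and tethering, Epm2a had a peak within 5 kb, and Nhlrc1, the ubiquitin ligase partner of laforin, and Stbd1 had none.

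**Figure D4:**
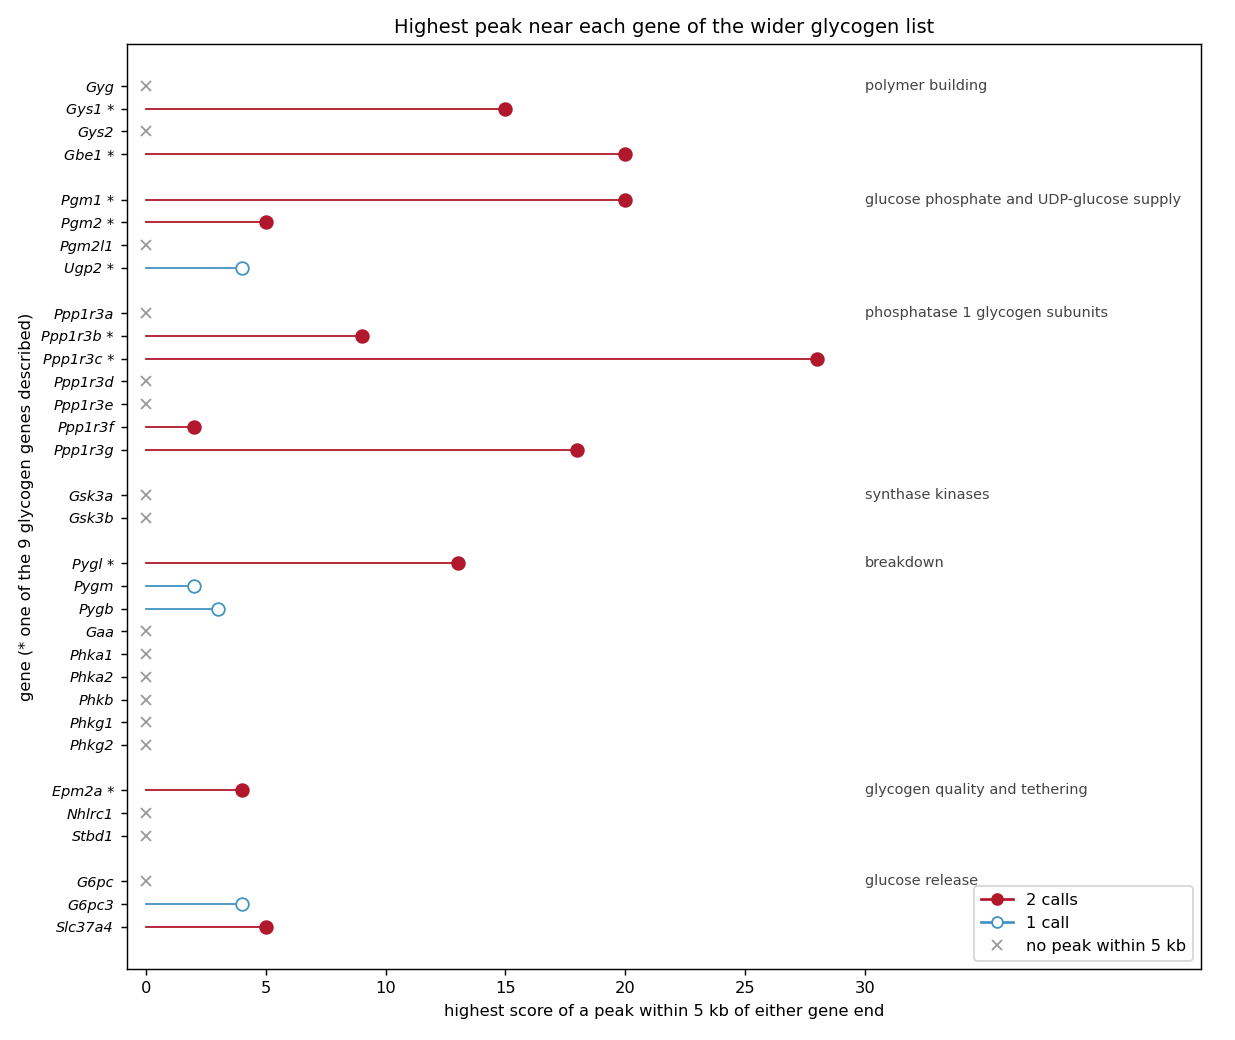
Highest score of any peak within 5 kb of either gene end for the 32 genes of the wider glycogen list, grouped by role. Filled red points are peaks of 2 calls, open blue points peaks of 1 call and crosses genes with no peak in the window. Asterisks mark the 9 genes described above, which were chosen by their peaks. With these 9 included, 15 of the 32 genes have a peak, against 24.0% of all protein-coding genes.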

How the data were processed

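The labels name 2 HIF1α pulldown libraries and 1 input from E12.5 hearts, cross-linked with 1.5% formaldehyde and sheared to about 200 bp. Bowtie2 and HOMER on the mm10 build are named in the submitters' processing notes, without versions. The authors deposited 1 merged peak list, whose column 5 is a whole-number score for each peak; per the file headers it merges calls of each pulldown against the input. The header names more columns than the file holds, and what the score is relative to, the calling threshold and the merging rule are not stated in the labels or header. The depth is unknown.

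Peak positions are 1-based. Gene spans and symbols came from the RefSeq table of GRCm38.p6, leaving out genes starting below 3 Mb on chromosomes other than Y. Strands and starts came from RefSeq promoter windows. Python 3.11.15 with pandas 2.3.3 and numpy 2.4.6 was used, and the counting and motif search were tested on simulated data. The members and lists were chosen with earlier results of these data known. The 9 members were all named, with each peak of 2 calls, the highest peak and the peak nearest a gene end. Of the wider list, genes with a peak of 2 calls within 5 kb or with none within 50 kb were named, and others as examples after their values were seen. A gene of the wider list is not reported here and was left out of its counts. No test was run. Alternatives changed the window, score minimum, calls, assignment and motif letters.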

Additional observations from a re-analysis of the deposited data

How the results depend on the processing

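Of 28 alternative counts of genes or peaks, 23 lay within 1.5 times the reported count. All 9 genes kept a peak at windows of 10 and 100 kb, at scores of at least 3, by any overlap and by the nearest coding gene. The genes were chosen by their peaks, and the 100 kb window cannot lose one, so these counts do not test the choice. With inside the gene only, 5 genes had a peak. The number of peaks at the 9 genes was 27, and it was 17 at a window of 10 kb, 11 inside the gene only and 14 for peaks of 2 calls. Of the wider list, 15 of 32 genes were near a peak, and 26 were at 50 kb with inside the gene. Both counts include the 9 genes chosen by their peaks. Without these, 6 of 23 and 17 of 23 had a peak, against 24.0% and 64.8% of all protein-coding genes. An alternative chosen after seeing the data counted a peak outside a gene where no other coding gene had a nearer end or held it, and 8 of the 9 genes then had a peak, without Gys1.

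The planned motif search over whole peaks was not run, since no genome sequence was used here. Leaving out a replicate was not possible, because the list merges the pulldowns. No paired analysis was possible because the input has no matching replicates and no test was run. With the depth unknown, the lack of a peak at a gene does not show a lack of binding.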
